A study of Mus musculus with 16 samples.

Results

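The genes described here belong to cholesterol synthesis, uptake and efflux, with their regulators. They were listed by name, 35 in all. A gene was measured through the brightest probe set that carries its symbol alone, by mean over 16 arrays, and 33 of the 35 had one, out of 22180 such genes on the arrays. Nr1h2 and Soat1 were not analysed here. The arrays measured RNA of myeloid progenitors sorted from bone marrow of wild-type C57BL/6 mice of unstated age. Mice drank antibiotic water, with ampicillin, metronidazole, neomycin and vancomycin at 1 g/L each, or control water, in both cases for 3 weeks and with 2% sucrose. Common myeloid progenitors (CMPs) had 3 antibiotic and 3 control arrays, and granulocyte-monocyte progenitors (GMPs) and committed monocyte progenitors (cMoPs) each had 3 antibiotic and 2 control arrays. All were sorted as negative for lineage markers, Sca-1 and CD105 and positive for Kit, and then by CD16/32, CD115 and Ly6C. The labels do not say whether arrays came from separate mice, from pools, or from the same mice for the 3 progenitors, so p-values measure the spread between these arrays.

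Cells make cholesterol from acetyl units through mevalonate, farnesyl diphosphate and squalene, and the first sterol, lanosterol, is trimmed to cholesterol on the endoplasmic reticulum. When sterol in that membrane is low, Scap carries the SREBP transcription factors to the Golgi, where they are released to switch on the synthesis genes, and when it is high the Insig proteins hold them back. Oxidised sterols activate the LXR receptors, which switch on the exporters Abca1 and Abcg1, and in mice the loss of these exporters expands myeloid progenitors.

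The labels were compared with marker genes, several of which encode proteins used in the sort. Csf1r, the gene of CD115, had group means of 9.29 and 9.39 in cMoPs and of 6.52 to 7.61 in the other groups, and Fcgr3, of CD16, lay at 9.28 to 9.81 in GMPs and cMoPs and at 6.65 and 6.68 in CMPs. Fcgr2b, of CD32, lay at 6.73 to 7.19 in GMPs and cMoPs and at 4.99 and 5.18 in CMPs, and Kit between 9.32 and 10.56 in all groups. Other sort genes did not follow the gates in the same way. Eng, of CD105, against which all cells were sorted, read 8.17 and 8.50 in CMPs and 6.41 to 7.22 in the other groups (GMPs minus CMPs -1.62, adjusted p = 6.26e-06). Ly6c2, of Ly6C, did not part cMoPs (12.72 and 12.67) from GMPs (12.59 and 12.52; difference 0.14, adjusted p = 0.817), and the lineage gene Itgam had group means of 6.06 to 7.36. The array means of 4 erythroid and megakaryocyte genes (Gata1, Klf1, Pf4 and Itga2b) were 8.04 to 8.32 in CMPs, 5.37 to 6.12 in GMPs and 4.26 to 4.75 in cMoPs. Those of 4 granule genes (Mpo, Elane, Prtn3 and Ctsg) were 10.41 to 11.42 in CMPs, 12.53 to 12.74 in GMPs and 12.39 to 12.60 in cMoPs. None parted cMoPs from GMPs (limma adjusted p = 0.537 to 0.795). The array means of 12 macrophage markers were 4.40 to 4.87, and the T cell genes Cd3e and Cd3g had group means of 2.45 to 3.39. The B cell gene Cd79a had 4.24 to 5.16, lower in cMoPs than in CMPs (-0.80, adjusted p = 0.0164), and Ms4a1 2.73 to 2.94. The lineage genes Ly6g and Itgax had 4.41 to 5.04 and 3.41 to 3.76. The lower quartile of the arrays reached 2.99, the table has no detection calls, and the group means of all 33 genes lay above that quartile.

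For 27 of the 33 genes RefSeq promoters (build GRCm38.p6) were at hand, and the 250 bases before each start were searched on both strands. The binding box of NF-Y, a factor that acts beside the SREBPs (CCAAT, or ATTGG on the other strand), was present in 21 of the 27 genes (77.8%), against 37.5% of 27025 genes with a promoter. An E-box (CACGTG), a sequence that SREBPs can also bind, was in 6 of the 27 (22.2%, against 6.86%). The core of an SREBP site (TCACNCCAC, which overlaps neither of the others) was in 1, Hmgcs1, against 1.22% of all genes. These are matches of letters and not shown to be bound. The stretch of Hmgcs1 that holds the core is shown with the core in capitals, its first base 137 bases before the start.
Hmgcs1, chr13:119690169-119690268, plus strand: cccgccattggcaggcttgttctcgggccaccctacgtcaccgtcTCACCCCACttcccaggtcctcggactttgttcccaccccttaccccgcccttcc

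The 100 bases before the start of 7 further synthesis enzymes are shown because these genes have 1 annotated start, hold a CCAAT box in that stretch, and either differed between progenitors or, for Nsdhl, had the smallest p between waters. Capitals mark CCAAT boxes in either orientation and, in Sc5d, an E-box.
Mvk, chr5:114444169-114444268, plus strand: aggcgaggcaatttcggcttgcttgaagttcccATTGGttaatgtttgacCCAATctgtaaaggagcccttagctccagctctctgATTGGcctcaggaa
Mvd, chr8:122443423-122443522, minus strand: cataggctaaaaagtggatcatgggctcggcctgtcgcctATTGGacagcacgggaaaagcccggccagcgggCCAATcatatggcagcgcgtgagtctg
Cyp51, chr5:4104698-4104797, minus strand: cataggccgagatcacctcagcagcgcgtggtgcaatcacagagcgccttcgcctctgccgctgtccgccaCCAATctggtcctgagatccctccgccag
Msmo1, chr8:64733579-64733678, minus strand: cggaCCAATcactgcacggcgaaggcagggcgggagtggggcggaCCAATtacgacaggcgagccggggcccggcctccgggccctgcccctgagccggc
Sc5d, chr9:42264301-42264400, minus strand: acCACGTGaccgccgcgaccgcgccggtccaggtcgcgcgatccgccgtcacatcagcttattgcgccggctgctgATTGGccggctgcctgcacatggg
Ebp, chrX:8193513-8193612, minus strand: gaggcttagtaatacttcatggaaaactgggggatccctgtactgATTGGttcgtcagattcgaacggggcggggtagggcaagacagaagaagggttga
Nsdhl, chrX:72918421-72918520, plus strand: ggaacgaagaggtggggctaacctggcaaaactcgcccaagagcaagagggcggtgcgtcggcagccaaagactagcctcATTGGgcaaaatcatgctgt
Msmo1, with 2 boxes here, was called lower and Mvk, with 3, higher in GMPs and in cMoPs than in CMPs. Against CMPs, Cyp51 was called lower in GMPs only and Mvd higher in cMoPs only. The part of the boxes in these differences was not tested. These genes were chosen for display after their values were seen.

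The first question is how the genes differ along commitment, over both waters. The pathway did not move as a block: farnesyl diphosphate synthase and mevalonate kinase were higher in GMPs and cMoPs than in CMPs, while squalene epoxidase, Srebf2, Abca1, Abcg1 and Apoe were lower. In GMPs against CMPs, 5 of 33 were called higher (7.87% of all genes were) and 8 lower (8.17%), at a Benjamini-Hochberg rate under 0.05 in limma, which called 16.0% of all genes. In cMoPs against CMPs, 7 were called higher (9.72% of all genes) and 10 lower (9.20%), where 18.9% of all genes were called. In cMoPs against GMPs, 4 were called higher (2.60%) and 1 lower (2.82%), where 5.42% were called. The members' median log2 difference was -0.12 for GMPs minus CMPs, -0.03 for cMoPs minus CMPs and 0.00 for cMoPs minus GMPs, beside 0.03, 0.04 and 0.01 over all genes. Under quantile normalization the split was 8 higher and 6 lower for cMoPs minus CMPs and 4 and 2 for cMoPs minus GMPs. In a sorted population, more or fewer cells that express a gene and more or less of its RNA per cell cannot be told apart.

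**Figure D1:**
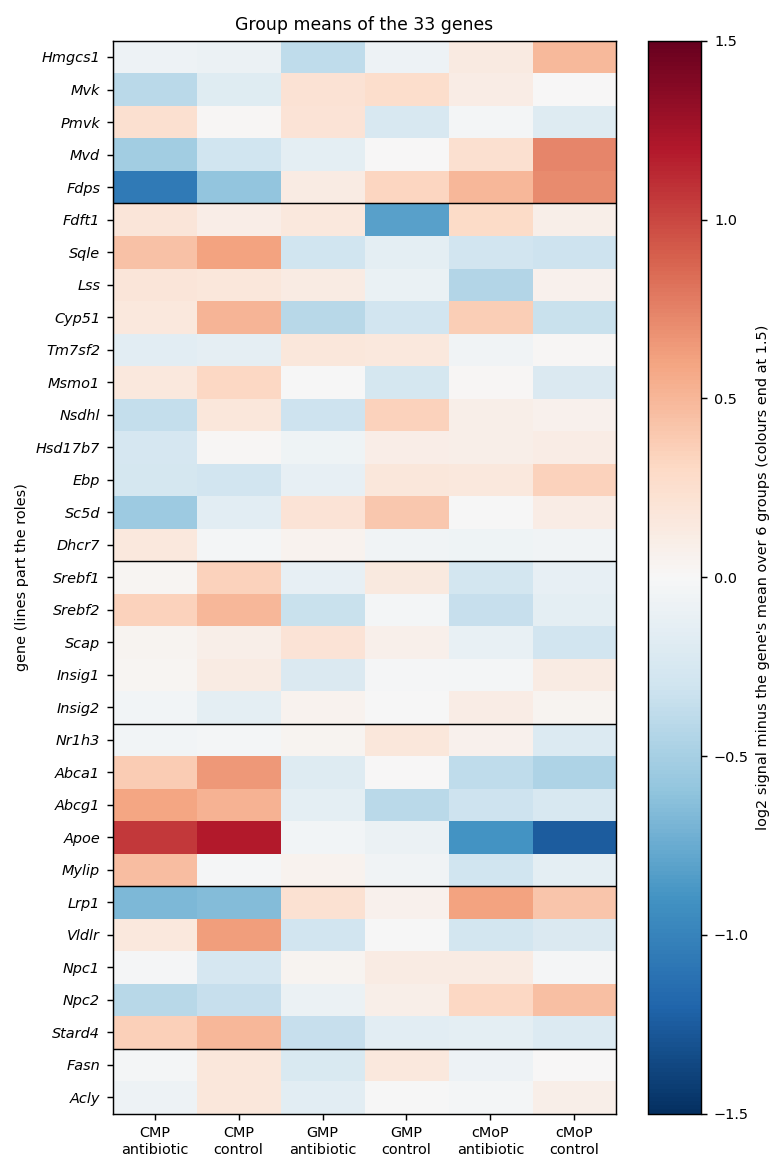
Mean log2 signal of each of the 33 genes in the 6 groups of progenitor and water, minus the gene's mean over the 6 groups; black lines part the roles from early synthesis at the top to the fatty acid enzymes at the bottom. Apoe, Sqle and Abca1 are highest in CMPs, and Fdps, Mvd and Lrp1 are highest in cMoPs.

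Of the 5 enzymes of the mevalonate stage, Fdps showed the widest separation. Fdps, which builds farnesyl diphosphate, the branch point to sterols and to the lipids that anchor small GTPases, read 7.62, 7.93 and 7.92 after antibiotics and 8.24, 8.54 and 8.09 in controls in CMPs. In GMPs it read 8.97, 9.08 and 8.98 after antibiotics and 9.26 and 9.15 in controls, and in cMoPs 9.57, 9.16 and 9.40 after antibiotics and 9.68 and 9.50 in controls. All GMP and cMoP arrays lay above all CMP arrays, and the GMP and cMoP arrays overlapped. The log2 difference was 1.05 ± 0.11 SE for GMPs minus CMPs (2.07-fold, adjusted p = 3.33e-06) and 1.43 ± 0.11 SE for cMoPs minus CMPs (2.69-fold, adjusted p = 8.44e-08). For cMoPs minus GMPs it was 0.38 ± 0.12 SE and missed the threshold (adjusted p = 0.08).

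Mvd, the decarboxylase that makes the first isoprene unit, read 5.01, 5.12 and 5.42 after antibiotics and 5.27, 5.27 and 5.67 in controls in CMPs. Its GMP values were 5.53, 5.49 and 5.64 after antibiotics and 5.62 and 5.80 in controls, and its cMoP values 6.12, 5.70 and 6.01 after antibiotics and 6.64 and 6.24 in controls. Every cMoP array was above every CMP array, and the GMPs lay between and overlapped both. Mvd was higher in cMoPs than in CMPs by 0.90 ± 0.12 SE (adjusted p = 4.64e-05) and than in GMPs by 0.56 ± 0.13 SE (adjusted p = 0.0154). The call against GMPs was lost without cMoP control 1 (0.46, adjusted p = 0.102) or without GMP control 1 (0.52, adjusted p = 0.0766).

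Mevalonate kinase, Mvk, was higher in GMPs (5.68) than in CMPs (5.15) by 0.53 ± 0.11 SE (adjusted p = 0.00235), with no overlap of arrays. In cMoPs against CMPs Mvk was higher by 0.35 ± 0.11 SE (adjusted p = 0.0317), a call lost under 11 of 25 alternatives, with adjusted p up to 0.104. Hmgcs1, the synthase that commits acetyl units to the pathway, was higher in cMoPs (7.86) than in GMPs (7.32) by 0.54 ± 0.14 SE (adjusted p = 0.0317). Its call was lost under 9 of 25 alternatives, with the highest adjusted p, 0.183, without cMoP control 1, whose 8.29 was the highest of its 16 values. Phosphomevalonate kinase, Pmvk, was called in no progenitor contrast, with differences of -0.24 to -0.09.

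In the squalene and sterol stage 4 of 11 enzymes were called in GMPs against CMPs, 1 higher and 3 lower. In cMoPs against CMPs 4 were called, 2 higher and 2 lower. Of all genes 7.87% were called higher and 8.17% lower in the first contrast, and 9.72% and 9.20% in the second. Sqle, the squalene epoxidase and a rate-limiting enzyme of the pathway, read 7.23, 7.27 and 7.35 after antibiotics and 7.37, 7.36 and 7.62 in controls in CMPs. The GMP arrays read 6.89, 6.39 and 6.38 after antibiotics and 6.35 and 7.06 in controls, and the cMoP arrays 6.60, 6.70 and 6.40 after antibiotics and 6.61 and 6.46 in controls. CMPs lay above GMPs and cMoPs on every array. The log2 difference was -0.74 ± 0.14 SE for GMPs minus CMPs (1.67-fold lower, adjusted p = 0.000931) and -0.82 ± 0.14 SE for cMoPs minus CMPs (1.76-fold lower, adjusted p = 0.000313).

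Cyp51, which demethylates lanosterol, read 5.47, 5.60 and 5.38 after antibiotics and 5.42, 6.19 and 5.90 in controls in CMPs. It read 4.99, 4.77 and 4.96 after antibiotics and 4.87 and 5.21 in controls in GMPs. In cMoPs the values were 5.45, 5.90 and 5.74 after antibiotics and 4.97 and 5.01 in controls, and there the antibiotic arrays stood above the controls. GMPs lay below CMPs on every array (-0.69 ± 0.13 SE, adjusted p = 0.00161). The cMoPs overlapped both, with -0.32 ± 0.13 SE against CMPs (adjusted p = 0.122) and 0.37 ± 0.14 SE against GMPs (adjusted p = 0.182).

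Sc5d, a desaturase near the end of the pathway, went the other way. It read 6.55, 6.09 and 6.70 after antibiotics and 6.94, 6.83 and 6.72 in controls in CMPs and 7.22, 7.27 and 7.09 after antibiotics and 7.29 and 7.50 in controls in GMPs. The cMoP arrays had 7.12, 6.76 and 7.09 after antibiotics and 7.15 and 7.05 in controls. All GMP arrays exceeded all CMP arrays (0.66 ± 0.12 SE, adjusted p = 0.000769), and cMoPs were higher than CMPs by 0.41 ± 0.12 SE (adjusted p = 0.0219). That second call was lost without cMoP antibiotic 1, cMoP antibiotic 3, cMoP control 1 or CMP control 3, with adjusted p of 0.0518 to 0.0866 and differences of 0.37 to 0.38, and with the replicate block within water (0.38, adjusted p = 0.0553).

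Ebp, the sterol isomerase, was higher in cMoPs (8.26) than in CMPs (7.73) by 0.53 ± 0.10 SE (adjusted p = 0.00145), without overlap. Msmo1, a methylsterol oxidase, was lower in both later progenitors, with -0.37 ± 0.11 SE for GMPs minus CMPs (adjusted p = 0.0271) and -0.34 ± 0.11 SE for cMoPs minus CMPs (adjusted p = 0.0402), with overlapping arrays. Both Msmo1 calls were fragile, lost under 10 and 14 of 25 alternatives with adjusted p up to 0.0944 and 0.188. The other 6 enzymes, Fdft1, Lss, Tm7sf2, Nsdhl, Hsd17b7 and Dhcr7, were called in no progenitor contrast, and their differences lay between -0.47 and 0.51, both in Fdft1.

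**Figure D2:**
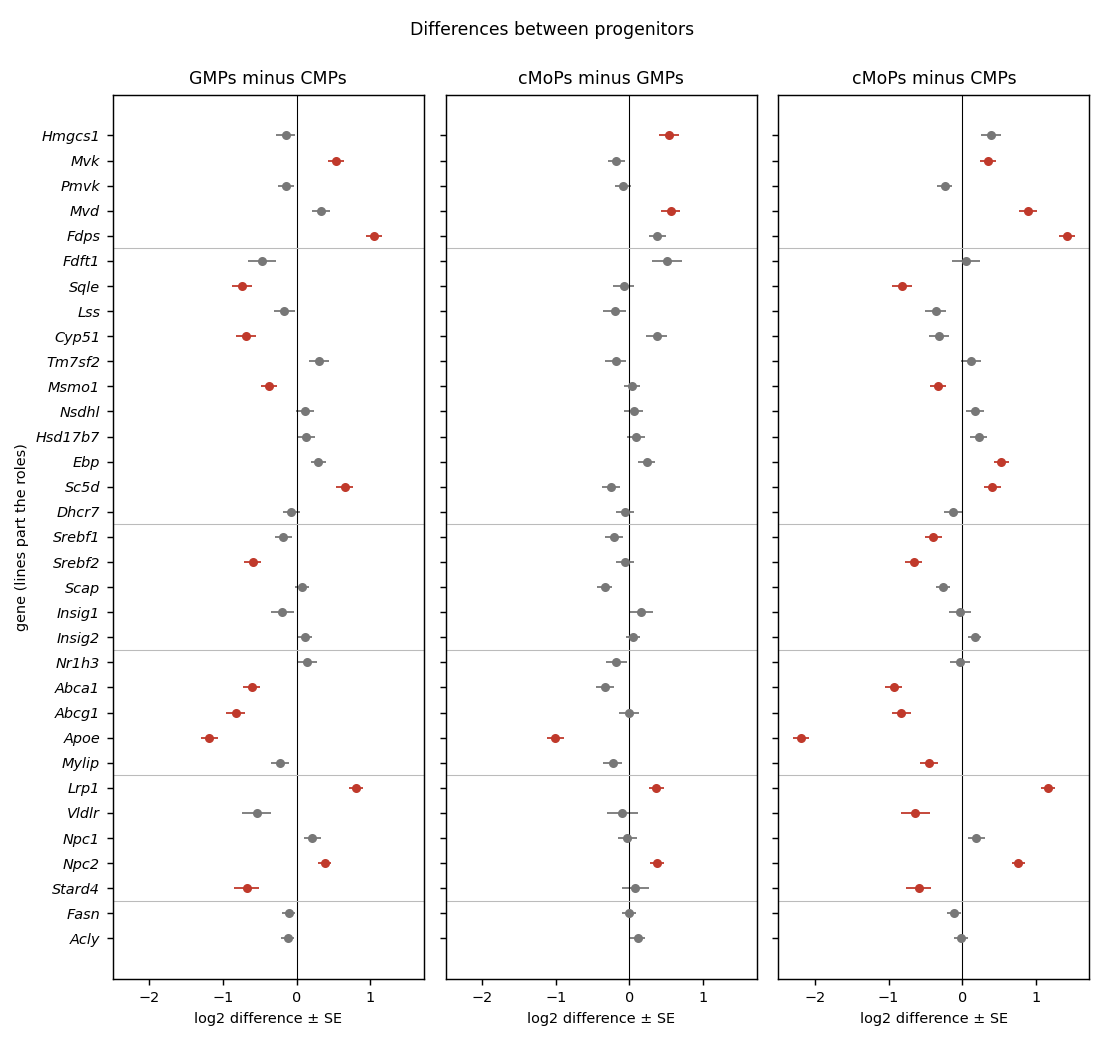
Log2 difference with its standard error for each gene, in GMPs minus CMPs, cMoPs minus GMPs and cMoPs minus CMPs, each averaged over both waters; red marks genes called at a Benjamini-Hochberg rate under 0.05, grey the rest. Apoe at -2.19 and Fdps at 1.43 are the ends of the cMoPs minus CMPs panel.

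Among the sensors, Srebf2, the factor that chiefly drives the synthesis genes, read 8.36, 8.74 and 8.29 after antibiotics and 8.64, 8.88 and 8.33 in controls in CMPs. It read 7.85, 7.85 and 7.68 after antibiotics and 8.07 and 8.12 in controls in GMPs, and 7.82, 7.80 and 7.72 after antibiotics and 8.14 and 7.82 in controls in cMoPs. Each CMP array was above each GMP and cMoP array. Srebf2 differed by -0.60 ± 0.12 SE in GMPs minus CMPs (adjusted p = 0.00172) and -0.66 ± 0.12 SE in cMoPs minus CMPs (adjusted p = 0.000586). Srebf1, which leans toward fatty acid genes, was lower in cMoPs than in CMPs (difference -0.39 ± 0.12 SE, adjusted p = 0.0256), with overlap and with the call lost under 7 of 25 alternatives (adjusted p up to 0.148, without cMoP control 1). Scap, Insig1 and Insig2 were called in no progenitor contrast. Scap, the escort, lay below every GMP array in the cMoPs (-0.34 ± 0.10 SE, adjusted p = 0.0717), and Insig1 and Insig2 differed by -0.19 to 0.17.

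Of the 5 genes of LXR and efflux, 4 were called lower in cMoPs than in CMPs, where 9.20% of all genes were. Apoe, an apolipoprotein that accepts exported cholesterol, read 7.38, 7.34 and 7.26 after antibiotics and 7.52, 7.30 and 7.57 in controls in CMPs. It read 6.45, 6.04 and 6.21 after antibiotics and 6.28 and 6.09 in controls in GMPs. The cMoP arrays read 5.28, 5.17 and 5.68 after antibiotics and 5.06 and 4.99 in controls. The 3 progenitors did not overlap at all. Apoe differed by -1.19 ± 0.11 SE in GMPs minus CMPs (2.27-fold lower, adjusted p = 1.04e-06) and by -1.01 ± 0.12 SE in cMoPs minus GMPs (2.01-fold lower, adjusted p = 3.85e-05). For cMoPs minus CMPs the difference was -2.19 ± 0.11 SE (4.58-fold lower in cMoPs, adjusted p = 7.05e-10), the largest of the 33 genes in size.

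Abca1, the exporter that loads lipid-poor apolipoprotein, had 5.00, 5.26 and 4.87 after antibiotics and 5.19, 5.41 and 5.32 in controls in CMPs. It had 4.35, 4.84 and 4.22 after antibiotics and 4.62 and 4.71 in controls in GMPs and 4.30, 4.37 and 4.18 after antibiotics and 4.14 and 4.26 in controls in cMoPs. Every CMP array was above every other array, and GMPs and cMoPs overlapped. The difference was -0.61 ± 0.12 SE in GMPs minus CMPs (adjusted p = 0.00146) and -0.93 ± 0.12 SE in cMoPs minus CMPs (adjusted p = 1.91e-05).

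Abcg1, the exporter to mature high-density particles, had 6.97, 7.23 and 6.97 after antibiotics and 6.89, 7.16 and 6.92 in controls in CMPs. Its GMP values were 6.19, 6.22 and 6.57 after antibiotics and 6.12 and 6.00 in controls, and the cMoP values 5.80, 6.39 and 6.29 after antibiotics and 6.41 and 6.04 in controls. All CMP arrays were again above the rest, with -0.83 ± 0.13 SE for GMPs minus CMPs (adjusted p = 0.000189) and -0.83 ± 0.13 SE for cMoPs minus CMPs (adjusted p = 0.000154). GMPs and cMoPs had the same mean, 6.19. Mylip, a ubiquitin ligase that removes lipoprotein receptors, was lower in cMoPs than in CMPs (difference -0.45 ± 0.12 SE, adjusted p = 0.0153), a call lost without cMoP control 2 (-0.34, adjusted p = 0.0997) and with quantile normalization (-0.38, adjusted p = 0.0550). Nr1h3, the LXR alpha receptor, differed by -0.18 to 0.14 and was not called. The erythroid and megakaryocyte markers given above were highest in CMPs and lowest in cMoPs, as were Apoe, Abca1 and Mylip. Abcg1 did not fall from GMPs to cMoPs, and Nr1h3 was highest in GMPs (4.33, against 4.19 in CMPs and 4.15 in cMoPs). Of the 12 macrophage markers, 2 passed in GMPs against CMPs (16.0% of all genes did), Vcam1 (2.47) and Adgre1 (1.59), both higher. In cMoPs against GMPs (5.42% of all genes) the same 2 passed, with Vcam1 lower (-2.69) and Adgre1 higher (0.79). In cMoPs against CMPs (18.9% of all genes) 3 passed, with Adgre1 higher (2.38) and Spic (-1.60) and C1qb (-0.69) lower. The part of these other cell states in the efflux genes was not tested.

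**Figure D3:**
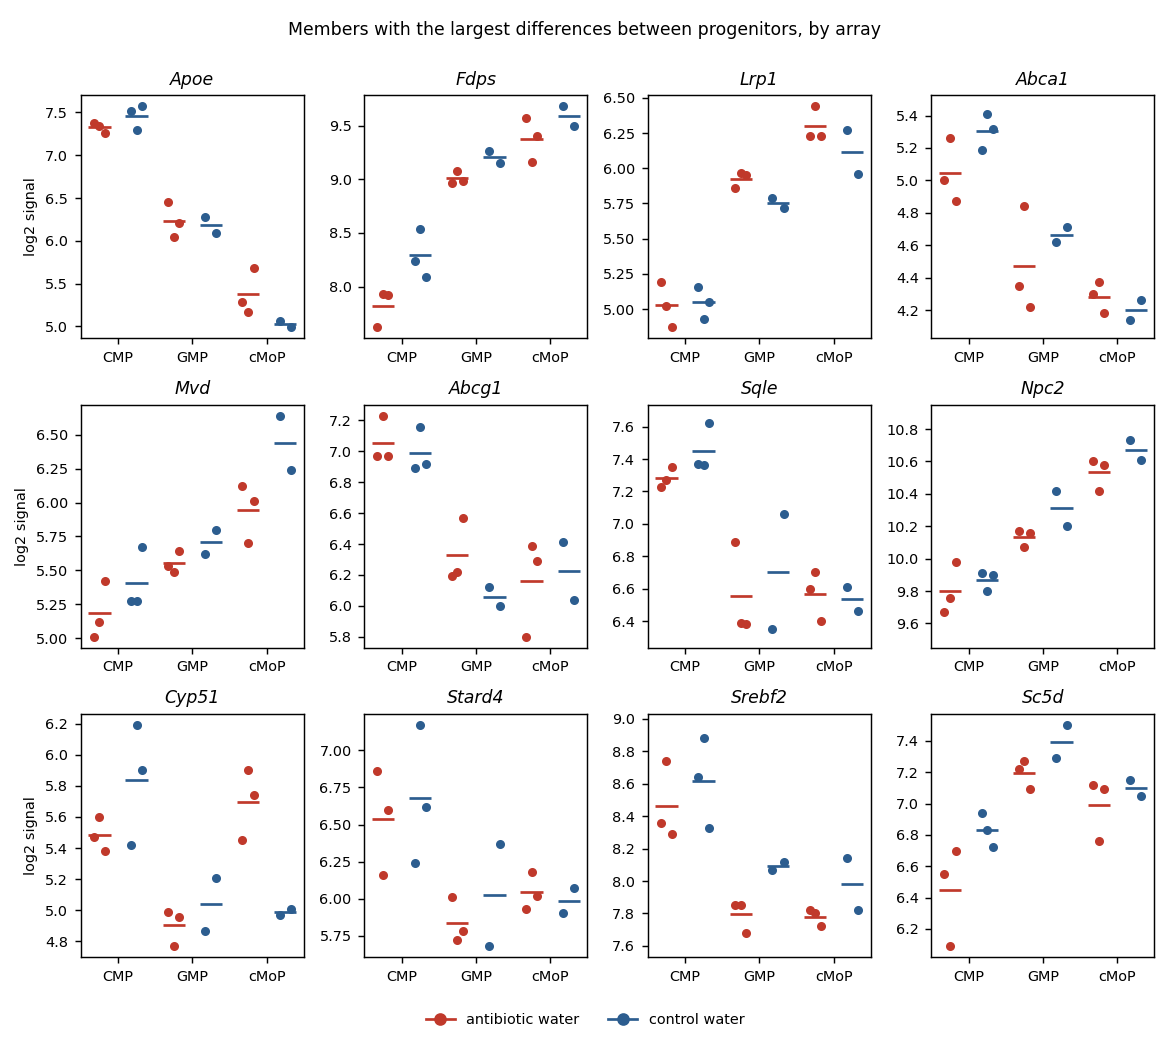
Log2 signal on every array for the 12 genes with the largest differences between progenitors, with antibiotic arrays in red to the left of control arrays in blue within each progenitor, and bars at group means. Apoe falls in steps with 6 CMP arrays at 7.26 to 7.57 and 5 cMoP arrays at 4.99 to 5.68, and Lrp1 climbs with CMPs at 4.87 to 5.19 and cMoPs at 5.96 to 6.44.

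The uptake and lysosomal genes ran both ways. Lrp1, a large endocytic receptor that takes up Apoe-bearing particles, read 5.19, 5.02 and 4.87 after antibiotics and 5.16, 4.93 and 5.05 in controls in CMPs. It read 5.86, 5.97 and 5.95 after antibiotics and 5.79 and 5.72 in controls in GMPs and 6.23, 6.44 and 6.23 after antibiotics and 6.27 and 5.96 in controls in cMoPs. CMPs lay below all others, and the lowest cMoP array (5.96) fell just under the highest GMP array (5.97). Lrp1 was higher by 0.80 ± 0.10 SE in GMPs minus CMPs (adjusted p = 1.39e-05) and by 1.17 ± 0.10 SE in cMoPs minus CMPs (2.25-fold, adjusted p = 1.69e-07). The step of 0.37 ± 0.10 SE in cMoPs minus GMPs (adjusted p = 0.0457) was lost under 16 of 25 alternatives, with adjusted p up to 0.22, without cMoP control 1.

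Npc2, which hands cholesterol out of lysosomes, read 9.67, 9.76 and 9.98 after antibiotics and 9.91, 9.80 and 9.90 in controls in CMPs. Its values were 10.17, 10.07 and 10.16 after antibiotics and 10.42 and 10.20 in controls in GMPs and 10.60, 10.42 and 10.58 after antibiotics and 10.73 and 10.61 in controls in cMoPs. The progenitors stood in the order CMPs, GMPs, cMoPs, with 1 shared value (10.42) between the GMPs and the cMoPs. Npc2 differed by 0.39 ± 0.09 SE in GMPs minus CMPs (adjusted p = 0.00632), 0.38 ± 0.09 SE in cMoPs minus GMPs (adjusted p = 0.0252) and 0.77 ± 0.09 SE in cMoPs minus CMPs (adjusted p = 8.96e-06). The middle call was lost without GMP antibiotic 2, GMP control 2, cMoP antibiotic 1, cMoP antibiotic 3 or cMoP control 1 (0.33 to 0.37, adjusted p = 0.0559 to 0.128). Its membrane partner Npc1 was called in no contrast (-0.03 to 0.21).

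Stard4, a sterol carrier and SREBP target, read 6.86, 6.16 and 6.60 after antibiotics and 6.24, 7.17 and 6.62 in controls in CMPs. The GMPs read 6.01, 5.72 and 5.78 after antibiotics and 5.68 and 6.37 in controls, and the cMoPs 5.93, 6.18 and 6.02 after antibiotics and 5.90 and 6.07 in controls. The CMP arrays were spread widely and overlapped the others. Stard4 was lower in GMPs than in CMPs (difference -0.68 ± 0.17 SE, adjusted p = 0.0125, and 0.0993 without GMP control 1). In cMoPs minus CMPs it was -0.59 ± 0.17 SE (adjusted p = 0.0237), lost under 6 of 25 alternatives with adjusted p up to 0.0963, without cMoP control 1. Vldlr, another lipoprotein receptor, was lower in cMoPs (3.54) than in CMPs (4.18) (difference -0.64 ± 0.20 SE, adjusted p = 0.0306), a call lost under 9 of 24 alternatives with adjusted p up to 0.127, without cMoP control 2. Vldlr was dim, with cMoP arrays at 3.29 to 3.76 beside a lower quartile of up to 2.99. It was not among the brighter genes, so that alternative is missing for it. The fatty acid enzymes Fasn and Acly, which share acetyl units with the pathway, differed between progenitors by -0.12 to 0.11 and were not called.

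In all, 19 of the 33 genes were called in at least 1 progenitor contrast (57.6%, against 24.0% of all genes) and 14 in none. Apoe, Lrp1 and Npc2 were called in all 3 (9.09%, against 1.97%). Sqle, Msmo1, Srebf2, Abca1, Abcg1, Apoe and Stard4 were called lower in GMPs and in cMoPs than in CMPs (21.2%, against 5.93%). Mvk, Fdps, Sc5d, Lrp1 and Npc2 were higher in both (15.2%, against 5.29%), and these 2 contrasts share the CMP arrays. The count of 5 for cMoPs minus GMPs, with 1202 of all genes called, fell in several fits without 1 array. The count over all genes fell too. Of the 33 genes, 2 were called without cMoP antibiotic 1 (989 of all genes), cMoP antibiotic 3 (1036) or GMP antibiotic 2 (1025). Without GMP antibiotic 3, 3 were called (1057 of all genes). Leaving out cMoP control 1 leaves 1 array in its group. The differences of Hmgcs1, Mvd, Lrp1 and Npc2 were then 0.41, 0.46, 0.29 and 0.35, against 0.54, 0.56, 0.37 and 0.38. Apoe differed by -1.08 to -0.95 over the 25 alternatives.

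The second question is whether antibiotic water changed the pathway. At the study's stated rate under 0.2, limma called 0 of the 33 genes in CMPs (0.0406% of all genes were called), GMPs (0.0721%), cMoPs (0.131%) or the mean of the 3 differences (0.514%). At an unadjusted p under 0.05 there were 4 in CMPs (12.1%, against 7.24% of all genes), 4 in GMPs (12.1%, against 7.49%), 3 in cMoPs (9.09%, against 6.20%) and 10 for the mean (30.3%, against 9.54%). The smallest adjusted p among the members was 0.479 in CMPs, 0.434 in GMPs, 0.549 in cMoPs and 0.256 for the mean. Over the mean, 20 of 33 differences were negative, beside 12019 of all 22180 genes. The members' median was -0.10, beside -0.01 over all genes. The sign was negative in all 3 progenitors for 11 genes (33.3%, against 16.5% of all genes) and positive in all 3 for 3 (9.09%, against 13.6%). The 11 were Mvd, Fdps, Hsd17b7, Sc5d, Srebf1, Srebf2, Insig1, Vldlr, Npc2, Fasn and Acly, and the 3 were Pmvk, Fdft1 and Insig2.

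**Figure D4:**
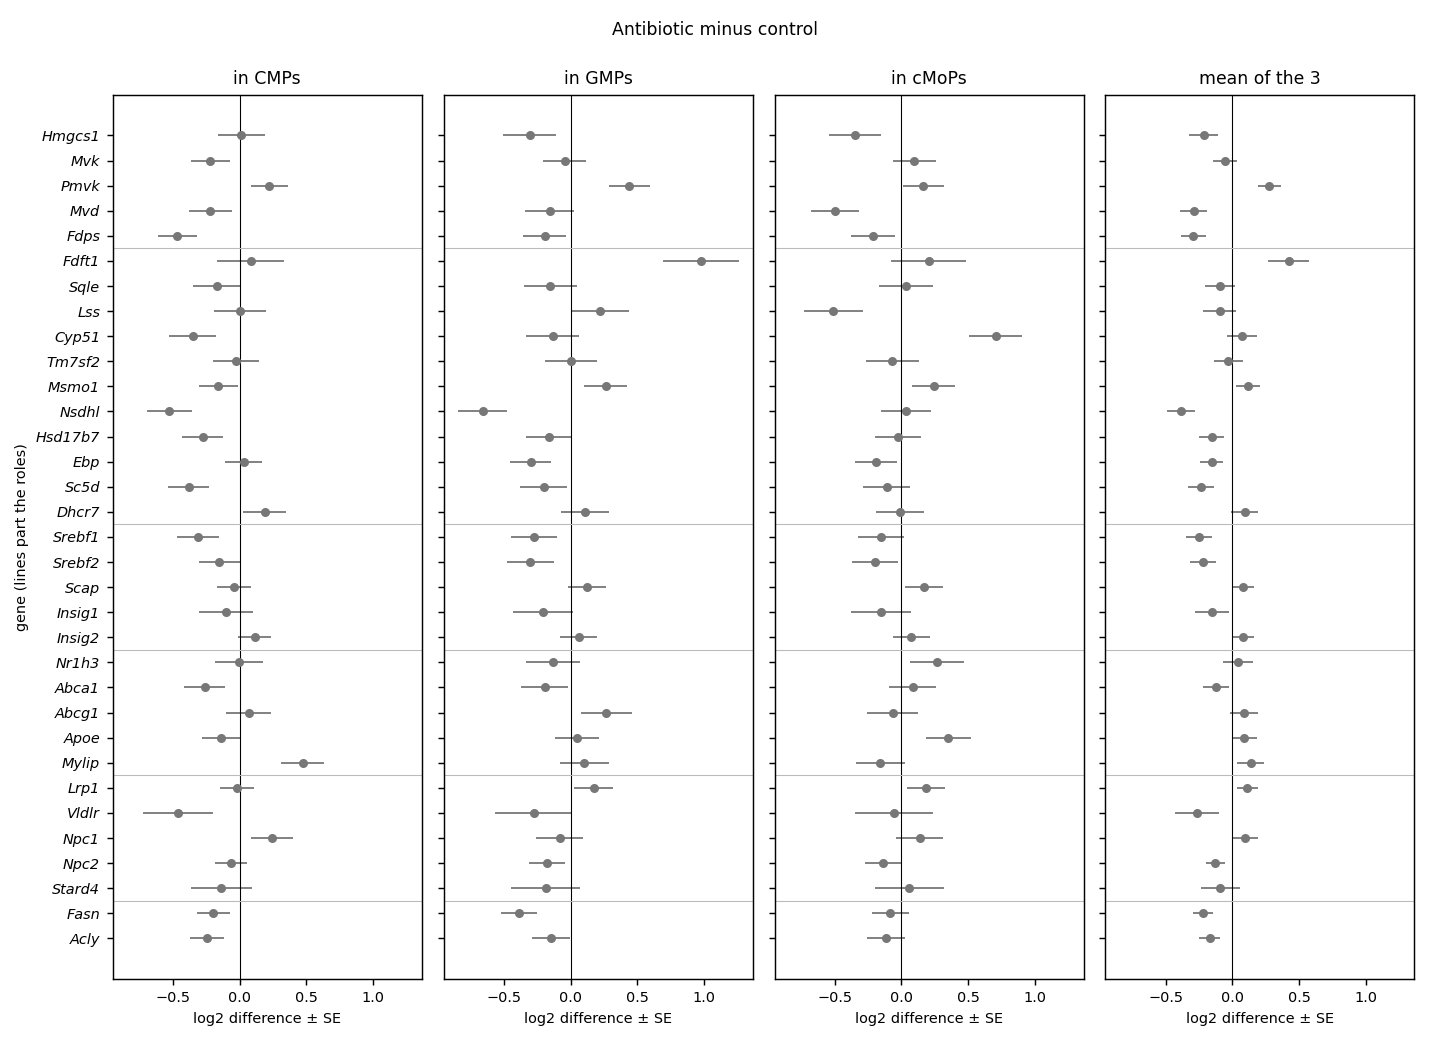
Log2 difference of antibiotic minus control with its standard error for each gene, in CMPs, GMPs, cMoPs and as the mean of the 3; all points are grey because none of the 33 genes was called at a rate under 0.2. The mean runs from -0.38 for Nsdhl to 0.42 for Fdft1.

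The 6 genes of smallest unadjusted p for the mean are given by array. Nsdhl, an X-linked dehydrogenase that helps strip methyl groups from the sterol ring, read 6.74, 6.58 and 7.08 after antibiotics and 7.17, 7.57 and 7.24 in controls in CMPs. It read 6.82, 6.65 and 7.08 after antibiotics and 7.62 and 7.40 in controls in GMPs, and 7.29, 7.04 and 7.43 after antibiotics and 7.29 and 7.15 in controls in cMoPs. The antibiotic arrays lay below the controls in CMPs and GMPs, and the waters overlapped in cMoPs. The difference was -0.53 ± 0.17 SE in CMPs, -0.66 ± 0.19 SE in GMPs and 0.03 ± 0.19 SE in cMoPs, with a mean of -0.38 ± 0.10 SE (adjusted p = 0.256 in limma). Nsdhl was called without CMP antibiotic 3 (-0.43, adjusted p = 0.185) or without GMP antibiotic 3 (-0.42, adjusted p = 0.196). It was also called when the dimmer part of the genes was dropped at the median (0.148), with trend and robust variances (0.155) and with the replicate number as a block (0.159), so it stood near the threshold.

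Fdps, whose array values are given above, was lower after antibiotics on every array in CMPs (-0.47 ± 0.15 SE) and GMPs (-0.20 ± 0.16 SE) and overlapped in cMoPs (-0.21 ± 0.16 SE). Its mean was -0.29 ± 0.09 SE (adjusted p = 0.303), called among the brighter genes (0.184) and with trend and robust variances (0.162). Mvd had a mean of -0.29 ± 0.10 SE (adjusted p = 0.369), with its widest gap in cMoPs (-0.50 ± 0.18 SE), where the antibiotic arrays were all below the controls. Without cMoP control 1 that gap was -0.30.

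Pmvk had the opposite sign. It read 7.28, 7.21 and 7.11 after antibiotics and 7.05, 6.96 and 6.92 in controls in CMPs and 6.95, 7.43 and 7.11 after antibiotics and 6.74 and 6.71 in controls in GMPs. In cMoPs it read 6.83, 7.05 and 6.92 after antibiotics and 6.60 and 6.94 in controls. The antibiotic arrays were above the controls in CMPs and GMPs. The mean was 0.28 ± 0.09 SE (adjusted p = 0.303, and 0.178 among the brighter genes). Fdft1, squalene synthase, read 7.11, 7.46 and 7.08 after antibiotics and 6.98, 7.40 and 7.02 in controls in CMPs. It read 7.00, 7.74 and 6.85 after antibiotics and 5.87 and 6.57 in controls in GMPs and 6.89, 7.35 and 7.73 after antibiotics and 7.10 and 7.14 in controls in cMoPs. The gap lay in GMPs (0.98 ± 0.28 SE, adjusted p = 0.449), where control array 1, at 5.87, was the lowest of all 16. Without that array the GMP difference was 0.63 (adjusted p = 0.743) and the mean 0.30 (adjusted p = 0.604). In CMPs and cMoPs the waters overlapped, and the mean was 0.42 ± 0.16 SE (adjusted p = 0.405).

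Fasn, fatty acid synthase, read 8.06, 8.22 and 8.09 after antibiotics and 8.53, 8.23 and 8.20 in controls in CMPs. It read 7.81, 7.88 and 8.07 after antibiotics and 8.25 and 8.36 in controls in GMPs and 8.12, 8.01 and 8.07 after antibiotics and 8.16 and 8.14 in controls in cMoPs. The antibiotic arrays were below the controls in GMPs and cMoPs, and the mean was -0.22 ± 0.08 SE (adjusted p = 0.358). Acly, which supplies cytosolic acetyl units, had -0.17 ± 0.08 SE (adjusted p = 0.521), Srebf1 -0.25 ± 0.10 SE (0.442), Sc5d -0.23 ± 0.10 SE (0.477) and Srebf2 -0.22 ± 0.10 SE (0.502). None of these passed.

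**Figure D5:**
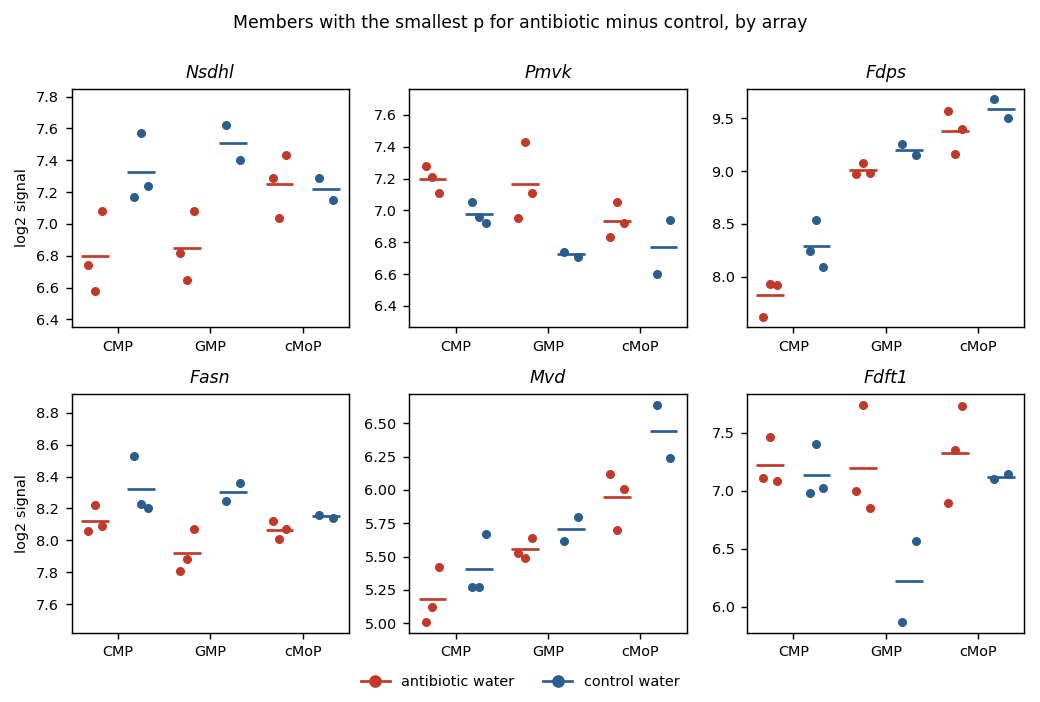
Log2 signal on every array for the 6 genes of smallest unadjusted p in the mean antibiotic difference, with antibiotic arrays in red to the left of control arrays in blue within each progenitor, and bars at group means. Nsdhl on antibiotic arrays lies at 6.58 to 7.08 in CMPs and GMPs, against 7.17 to 7.62 on control arrays, while the waters mix in cMoPs.

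The efflux and uptake genes had mean antibiotic differences of -0.27 (Vldlr) to 0.14 (Mylip). Mylip differed by 0.47 ± 0.16 SE in CMPs, where the antibiotic arrays were all above the controls, and by 0.10 ± 0.18 SE in GMPs and -0.16 ± 0.18 SE in cMoPs. Apoe differed by 0.35 ± 0.17 SE in cMoPs, again without overlap (adjusted p = 0.81; the difference was 0.20 without cMoP antibiotic 3), and by -0.14 and 0.05 in CMPs and GMPs. Abca1 and Abcg1 differed by -0.12 ± 0.10 SE and 0.09 ± 0.11 SE over the mean. Among the members 3 lay wholly above and 6 wholly below the controls in CMPs, 6 and 8 in GMPs, and 3 and 5 in cMoPs. Over all genes these shares were 5.21% and 6.36% in CMPs, 10.4% and 12.6% in GMPs, and 9.59% and 11.4% in cMoPs.

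Whether the antibiotic difference itself differed between progenitors was tested for each gene, and 0 of 33 passed (0.00451% of all genes did), with 2 at an unadjusted p under 0.05 in limma (6.06%, against 5.79% of all genes, a share near the background). These were Cyp51 (adjusted p = 0.694 in limma), whose differences were -0.35 in CMPs, -0.13 in GMPs and 0.71 in cMoPs, and Nsdhl (adjusted p = 0.851 in limma). Both names were taken after their values were seen.

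Of 30 other pathway genes listed, 22 were measured. In the mean antibiotic difference 0 were called higher and 1 lower, where 0.514% of all genes were called in either direction. The lower gene was Tmem97, an SREBP target that binds sterols (-0.34, adjusted p = 0.154 in limma). The median of the 22 was -0.04. Between progenitors 4 were higher and 3 lower in GMPs than in CMPs, where 7.87% and 8.17% of all genes were. In cMoPs against GMPs 1 was higher and 0 lower (2.60% and 2.82% of all genes), and in cMoPs against CMPs 5 were higher and 2 lower (9.72% and 9.20%). The 5 higher ones were Lbr (0.38), Cyp27a1 (0.71), Lipa (0.39), Scarb1 (0.62) and Tmem97 (0.605). The 2 lower ones were Acss2, which makes acetyl-CoA from acetate (-2.13), and the desaturase gene Scd1 (-1.45). Scd1 had cMoP group means of 3.01 and 3.30, near the lower quartile of the arrays (up to 2.99).

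Of 5 monocyte markers, 2 were called between waters over the mean, where 0.514% of all genes were. The array means of 5 monocyte genes (Csf1r, Ly6c2, Irf8, Ccr2 and Cx3cr1) were 7.63 to 8.12 after antibiotics and 8.30 to 8.43 in controls in CMPs, and 8.43 to 8.81 after antibiotics and 8.86 to 9.12 in controls in GMPs. In cMoPs they were 10.18 to 10.26 after antibiotics and 10.20 to 10.22 in controls. Ccr2 (-0.47, adjusted p = 0.18) and Cx3cr1 (-0.49, adjusted p = 0.188) were the 2 called, both lower, and Csf1r, Ly6c2 and Irf8 did not pass (adjusted p = 0.273, 0.79 and 0.889). The means of the 4 erythroid and megakaryocyte genes also parted the waters in GMPs, at 6.08 to 6.12 after antibiotics and 5.37 to 6.00 in controls. So did those of 5 gate and stage genes (Kit, Cd34, Fcgr3, Fcgr2b and Eng), at 8.57 to 8.83 after antibiotics and 8.88 to 8.89 in controls, though 0 genes of either list were called over the mean. Of the 12 macrophage markers, 0 were called over the mean in either direction, and 0 of the 4 granule genes. In CMPs the granule genes Elane and Prtn3 differed by -0.74 and -0.82, and Mpo and Ctsg by -0.22 and -0.14. The part of these markers in the differences of the pathway was not tested.

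Within groups, 1 control array had high values for many of the synthesis genes. On CMP control 2, 18 of the 33 genes had the highest value of the 3 CMP controls, where 32.9% of all genes did, and the 16 synthesis enzymes had a median deviation of 0.18 from the group mean, beside -0.01 over all genes. Of the synthesis enzymes, Hmgcs1 read 7.84 there, against 7.14 and 7.41 on the other CMP controls, and Cyp51 6.19 against 5.42 and 5.90. Outside synthesis, Insig1 read 7.80 against 7.00 and 7.49, and Stard4 7.17 against 6.24 and 6.62. On the same array 10 of the 33 genes had the lowest value of the 3 CMP controls, among them the enzyme gene Ebp (7.57, against 7.67 and 7.91). The share of all genes lowest there was not computed. These genes were named after their values were seen. Without CMP control 2 the number called between waters in CMPs was still 0. In cMoPs minus CMPs the limma calls of Srebf1 (-0.37, adjusted p = 0.0547), Vldlr (-0.62, adjusted p = 0.0575) and Stard4 (-0.47, adjusted p = 0.0551) were lost.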

How the data were processed

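The deposited table held 1 log2 signal per probe set and array, and per the submitters' processing notes the authors used Partek and Transcriptome Analysis Console. How probes were summarised and normalized, and with which software versions, is not given in the sources used here. Per the labels, 2.6 ng of RNA was amplified per sample. The values were used as deposited (array medians 4.04 to 4.17). Of 41345 probe sets, 23521 carried 1 gene symbol (1814 several, 16010 none), and for each of 22180 genes the brightest was taken. No filter on dim genes was applied.

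Group means of progenitor and water were fitted to all 16 arrays with limma 3.58.1 in R 4.3.3 (lmFit, eBayes; 10 residual degrees of freedom). Adjusted p-values are Benjamini-Hochberg values over all 22180 genes, two-sided. The rate was 0.2 for effects of water, after the study's stated design, and 0.05 between progenitors. Progenitor differences average both waters equally, and the mean antibiotic difference averages the 3 progenitors equally; both assume independent arrays. Given by array were the 12 genes with the largest difference between progenitors and the 6 of smallest p for the mean antibiotic difference. The script was tested on simulated data. The members and lists were chosen with earlier results of these data known. Precision is limited by how few arrays there are. The alternatives tried changed the probe set rule, the features tested, the variance model, the scaling, the arrays fitted, and a block for the replicate number.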

Additional observations from a re-analysis of the deposited data

Results flagged for a closer look

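Lss, lanosterol synthase, is listed because its antibiotic arrays lay wholly above the controls in GMPs and wholly below them in cMoPs. It read 5.13, 4.90 and 5.19 after antibiotics and 4.85 and 4.86 in controls in GMPs and 4.62, 4.79 and 4.12 after antibiotics and 5.00 and 5.04 in controls in cMoPs. The log2 difference was 0.00 in CMPs (0.003), 0.22 in GMPs (0.218) and -0.51 in cMoPs, or -0.32 there without cMoP antibiotic 3. The test of the difference between progenitors did not pass (limma adjusted p = 0.883), and in the 2 progenitors named each group of controls has 2 arrays.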

How the results depend on the processing

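A total of 25 alternatives were run. Of 41 called or named differences, 25 kept their side of the threshold under every alternative run for them, and 0 changed sign. The number called for the mean antibiotic difference was 3 when genes dimmer than the median were dropped, 2 with trend and robust variances and 1 with the replicate block, against 0, and 0 to 1 when arrays were left out in turn. For cMoPs minus GMPs it was 3 with all probe sets tested and 3 with the replicate block within water, against 5, and 1 to 5 when arrays were left out. The cause was not tested. The other counts stayed within 1.5 times. Over all genes the mean antibiotic difference had 114 calls, 353 among the brighter genes, 350 with trend and robust variances and 120 with the replicate block. The labels do not say what arrays with the same number share. Between progenitors of the same water, deviations of same-numbered arrays correlated at -0.05 to 0.10 (median 0.029). For different numbers this was -0.10 to 0.06 (median -0.016). Of the 16 arrays, 10 correlated best with their own number, and whether the numbers mark pairs was not tested. Leaving out an array of a control group of 2 leaves 1, assumed to vary like the other groups. No array gives a detection call.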
